A study of Mus musculus with 8 samples.

Results

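Stefins, cystatins and the lysosomal cathepsins were described as one group of protease inhibitors and proteases in primary mouse macrophages. The group comprised 10 genes of the 19053 named genes on the array, namely Stfa1, Stfa2, Stfa3, Cstb, Cst3, Ctsb, Ctsd, Ctsl, Ctss and Ctsz. All probes carrying one of these symbols were taken, 14 of the 45281 probes on the array, and each probe is given by itself because the stefin A copies are near-identical and a probe may read more than 1 of them. The genes were picked by name with earlier knockout and LPS changes on these arrays known. Their changes are therefore a description without p-values, and being past the threshold for a call supports nothing further about them.

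The cells were macrophages grown from bone marrow of male mice aged 10 weeks. The labels place both genotypes, wild type and Bcl6-/-, on a c57Bl6/J background. Cells of each genotype were left unstimulated or treated with LPS, the lipid of bacterial cell walls that macrophages sense through Tlr4. Each of the 4 groups was hybridised to 2 single-colour bead arrays that the labels call technical replicates, so n = 2 arrays in each group. Every error and every p-value below covers the spread between arrays, not between mice. Not given in the sources used here are the dose and duration of LPS, the number of mice and the deleted part of Bcl6.

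Stefins A and B are small inhibitors in the cytosol, and cystatin C, the product of Cst3, is a secreted inhibitor; all of them block papain-like cysteine proteases by binding in the active site. Their targets include cathepsins B, L, S and Z, which digest proteins in lysosomes, whereas cathepsin D is an aspartic protease that cystatins do not block. In macrophages these enzymes degrade engulfed material, and cathepsin S and cathepsin L are known for trimming the invariant chain of MHC class II. In the mouse the stefin A genes form a cluster of recent copies and are known as transcripts of neutrophils and other myeloid cells.

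The 3 stefin A genes in the group are near copies, and so is the DNA before their start. The 250 bases upstream of each gene's annotated start in RefSeq (GRCm38.p6) are shown because these copies lie in one cluster, yet their probes read very differently. Capitals mark runs of at least 12 bases that all 3 windows share.
Stfa1, chr16:36276898-36277147, plus strand: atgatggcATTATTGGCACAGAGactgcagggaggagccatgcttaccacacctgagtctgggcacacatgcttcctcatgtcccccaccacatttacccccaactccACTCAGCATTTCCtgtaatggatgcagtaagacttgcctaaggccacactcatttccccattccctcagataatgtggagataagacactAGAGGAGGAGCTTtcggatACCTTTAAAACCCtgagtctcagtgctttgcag
Stfa2, chr16:36408364-36408613, minus strand: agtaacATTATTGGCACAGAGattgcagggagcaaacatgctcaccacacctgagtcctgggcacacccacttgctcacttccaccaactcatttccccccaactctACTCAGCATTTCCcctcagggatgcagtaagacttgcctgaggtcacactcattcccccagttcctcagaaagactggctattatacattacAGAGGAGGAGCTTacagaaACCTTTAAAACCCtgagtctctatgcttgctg
Stfa3, chr16:36455393-36455642, minus strand: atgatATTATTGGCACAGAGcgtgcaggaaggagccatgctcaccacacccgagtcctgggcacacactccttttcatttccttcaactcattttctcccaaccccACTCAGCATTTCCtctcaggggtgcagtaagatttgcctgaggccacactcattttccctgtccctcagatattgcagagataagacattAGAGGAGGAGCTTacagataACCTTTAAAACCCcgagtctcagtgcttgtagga
The 3 windows shared 4 such runs with 54 bases in all, the longest of 15 bases. In pairwise global alignment 204 bases (81.6% of the window) were identical between Stfa1 and Stfa2, 211 (84.4%) between Stfa1 and Stfa3, and 203 (81.2%) between Stfa2 and Stfa3. The last shared run holds TTTAAA close to the gene's start, letters found on either strand in 12.1% of all 32851 windows of this length.

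The windows of the 2 cathepsins that had the largest fitted knockout differences under LPS among the 10 genes follow, with the E-box letters CACGTG in capitals, which are known to be bound by the lysosomal regulators of the Tfeb and Mitf family.
Ctsl, chr13:64370521-64370770, minus strand: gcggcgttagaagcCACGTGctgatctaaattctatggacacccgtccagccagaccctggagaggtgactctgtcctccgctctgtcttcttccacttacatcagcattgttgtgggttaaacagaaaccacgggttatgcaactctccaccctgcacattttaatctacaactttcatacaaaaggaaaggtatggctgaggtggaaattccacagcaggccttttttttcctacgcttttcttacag
Ctsd, chr7:142387828-142388077, minus strand: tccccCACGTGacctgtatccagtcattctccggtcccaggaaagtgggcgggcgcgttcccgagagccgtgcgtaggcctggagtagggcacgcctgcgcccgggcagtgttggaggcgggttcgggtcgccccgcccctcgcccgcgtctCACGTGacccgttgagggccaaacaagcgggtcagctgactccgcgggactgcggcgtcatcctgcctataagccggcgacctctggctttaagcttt
CACGTG, searched on both strands, occurred in 6.02% of all windows, and among the 8 members with a window in Ctsl and Ctsd only. TCACGTGA, which contains it, occurred in 0.785% of all windows and in that of Ctsd. TTCCTNGAA, a core of the Bcl6 motif, occurred in 1.31% of all windows and in none of the 8 members. TTCNNNGAA, the wider STAT-like form that includes it, occurred in 7.02% of all windows and again in none of the 8. Of the further stefin-like genes searched, Cstdc4, Cstdc5 and Csta3, only Cstdc4 held TTCNNNGAA. These are matches of letters in 250 bases and were not tested as binding sites.

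Between 11857 and 13209 probes were detected on each array (detection p under 0.01 against that array's negative controls), and 14418 probes detected on at least 2 arrays were tested. Arrays of the same group correlated at r of 0.992 to 0.994 across probes and arrays of different groups at 0.889 to 0.954. All 13 macrophage marker genes with a probe were detected on all 8 arrays. In each of the knockout comparisons, unstimulated and under LPS, 2 of their 19 probes were higher and 6 lower, so the marker set was not constant between genotypes. Over all probes 7.92% and 11.6% were called in these comparisons. The single Bcl6 probe tested was detected on every array, at log2 signals of 10.95 and 10.92 in unstimulated wild type, 10.75 and 10.99 in wild type with LPS, 12.60 and 12.33 in unstimulated cells labelled Bcl6-/-, and 9.92 and 9.93 in LPS-treated cells labelled Bcl6-/-. Whether this probe lies inside the deleted part is not known here, so it does not check the genotype, and the unstimulated arrays labelled Bcl6-/- read higher than wild type. Every direction between genotypes below rests on the labels.

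Of the 14 probes, 12 passed the detection filter. The 2 that did not were the only Stfa3 probe and Ctsb probe a, neither of which was detected on any array. A probe was called where its adjusted p in limma was under 0.05 and its change at least 2-fold. In unstimulated cells 5 of the 12 tested probes were called higher in arrays labelled Bcl6-/- and 0 lower, beside 7.92% of all probes called in either direction, 4.15% higher and 3.77% lower. Under LPS the same count was 5 higher and 0 lower, beside 11.6% in either direction, 6.1% higher and 5.45% lower. Both contrasts were in view when the genes were chosen, and all 5 probes passed the filter only through the arrays labelled Bcl6-/-, so nothing is read from these shares. LPS moved 0 of the 12 past the threshold in wild type, where 13.5% of all probes were called, 7.93% higher and 5.58% lower, and 2 in cells labelled Bcl6-/-, both higher, where 14% were called, 7.59% higher and 6.39% lower. The median change of the 12 probes was 0.22 in unstimulated cells and 0.82 under LPS between genotypes, on the log2 scale, against 0.00 and -0.04 over all probes.

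**Figure D1:**
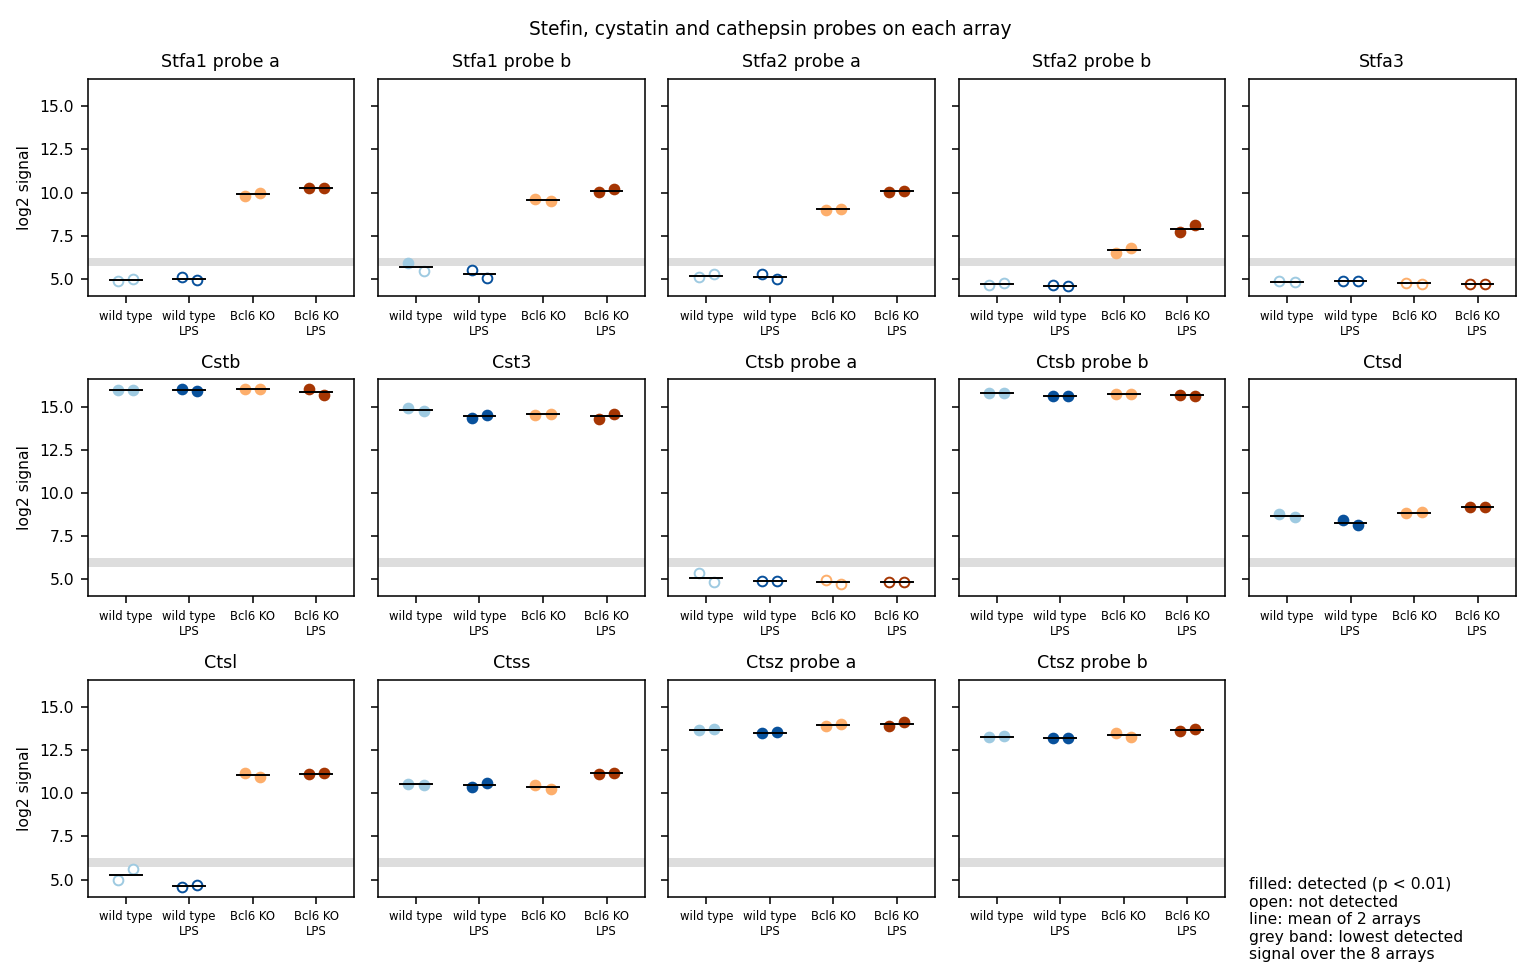
Each panel shows 1 probe, with the background-corrected, quantile-normalized log2 signal (vertical axis) on each of the 2 arrays of the 4 groups (horizontal axis; KO is the label Bcl6-/-). Filled points were detected, open points were not, the line is the mean of 2 arrays and the grey band spans the lowest detected signal of the 8 arrays. The Stfa1, Stfa2 and Ctsl probes sit at or below the band in wild type and above it in all 4 arrays labelled Bcl6-/-, whereas Stfa3 and Ctsb probe a stay below it everywhere.

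The stefin A inhibitors Stfa1 and Stfa2 were read near the array background in wild type and clearly above it in cells labelled Bcl6-/-. Stfa1 probe a (ILMN_2774410) gave log2 signals of 4.85 and 4.98 in unstimulated wild type, 5.08 and 4.93 in wild type with LPS, 9.82 and 9.96 in unstimulated cells labelled Bcl6-/-, and 10.27 and 10.25 in LPS-treated cells labelled Bcl6-/-. It was detected on none of the 4 wild-type arrays and on all 4 of the others, and the genotypes did not overlap. Because wild type gave only an upper bound, the difference was at least 16.1-fold in unstimulated cells and at least 21.0-fold under LPS, with fitted log2 differences of 4.97 and 5.25 (SE 0.12).

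Stfa1 probe b (ILMN_2988931) read 5.93 and 5.48 in unstimulated wild type, 5.52 and 5.08 in wild type with LPS, 9.62 and 9.50 in unstimulated cells labelled Bcl6-/-, and 10.00 and 10.22 in those with LPS. Replicate 1 of unstimulated wild type was the only wild-type array on which it was detected. The fitted difference between genotypes was 3.85 log2 units (SE 0.19) in unstimulated cells, against a wild-type group in which 1 of 2 arrays detected the probe, and the genotypes differed at least 18.9-fold under LPS. Both Stfa1 probes thus placed the genotypes in the same order with no overlap.

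Stfa2 had a pair of probes that differed in size of response. Probe a (ILMN_1260585) read 5.09 and 5.30 in unstimulated wild type, 5.30 and 4.97 in wild type with LPS, 9.01 and 9.05 in unstimulated cells labelled Bcl6-/-, and 10.03 and 10.11 in those with LPS. Probe b (ILMN_2736774) read 4.62 and 4.78 in unstimulated wild type, 4.63 and 4.58 in wild type with LPS, 6.52 and 6.81 in unstimulated cells labelled Bcl6-/-, and 7.71 and 8.09 in those with LPS. Neither was detected in wild type and both were detected on all 4 other arrays. For probe a the genotypes differed at least 8.85-fold in unstimulated cells and at least 18.4-fold under LPS, and for probe b at least 1.72-fold and at least 4.08-fold.

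Stfa2 was also the only gene of the 10 whose probes passed the threshold for LPS. Within cells labelled Bcl6-/- the LPS arrays exceeded the unstimulated ones by 1.04 log2 units (SE 0.14) on probe a and by 1.24 (SE 0.16) on probe b, and the arrays did not overlap. The Stfa1 probes were higher with LPS in the same cells by 0.37 (SE 0.12) and 0.56 (SE 0.19), below the 2-fold threshold. In wild type all 4 probes were undetected on both LPS arrays, so no LPS change can be given there. The LPS effect in cells labelled Bcl6-/- minus that in wild type, as fitted on signals that were background in wild type, was 1.10 (SE 0.20) and 1.33 (SE 0.23) for the Stfa2 probes, past the threshold that 4.22% of all probes passed, 1.89% in that direction and 2.32% in the opposite one.

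Stfa3, the remaining stefin A gene of the group, gave 4.87 and 4.81 in unstimulated wild type, 4.87 and 4.90 in wild type with LPS, 4.77 and 4.73 in unstimulated cells labelled Bcl6-/-, and 4.72 and 4.68 in those with LPS. Its probe was detected on no array, so no fold is given. Its upstream window, shown above, was 84.4% identical to that of Stfa1, and the window of Stfa2, whose probes were detected in cells labelled Bcl6-/-, was 81.6% identical to it.

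Stefin B, the widely expressed cytosolic inhibitor encoded by Cstb, was at the top of the array's range in every group. Its probe (ILMN_2700715) read 15.95 and 15.96 in unstimulated wild type, 16.01 and 15.88 in wild type with LPS, 16.01 and 16.01 in unstimulated cells labelled Bcl6-/-, and 15.99 and 15.69 in those with LPS. Counted from the brightest probe, its rank lay between 1 and 26 on the 8 arrays. A probe this close to the brightest signal can hide a rise, and its fitted genotype differences were 0.05 and -0.10 (SE 0.13).

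Cystatin C, the main secreted cystatin, was likewise bright in all groups. The Cst3 probe (ILMN_1257575) read 14.91 and 14.72 in unstimulated wild type, 14.35 and 14.54 in wild type with LPS, 14.54 and 14.58 in unstimulated cells labelled Bcl6-/-, and 14.26 and 14.59 in those with LPS. The fitted change with LPS was -0.37 (SE 0.14) in wild type and -0.13 (SE 0.14) in cells labelled Bcl6-/-, and neither passed the threshold. Between genotypes it was -0.26 in unstimulated cells and -0.02 under LPS, where the arrays overlapped.

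Among the proteases, Ctsl had the widest separation. Cathepsin L is a potent lysosomal endopeptidase and one of the targets of the stefins. Its probe (ILMN_2904703) read 4.97 and 5.61 in unstimulated wild type, 4.59 and 4.69 in wild type with LPS, 11.18 and 10.94 in unstimulated cells labelled Bcl6-/-, and 11.10 and 11.15 in those with LPS. It was detected on none of the wild-type arrays and on all 4 others. The difference was at least 36.2-fold in unstimulated cells and at least 38.1-fold under LPS, with fitted log2 differences of 5.78 and 6.48 (SE 0.20). In cells labelled Bcl6-/- the LPS arrays overlapped the unstimulated ones, with a fitted change of 0.06 (SE 0.20).

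Cathepsin D, the aspartic protease of lysosomes, differed between genotypes by less. The Ctsd probe (ILMN_2987685) read 8.75 and 8.61 in unstimulated wild type, 8.40 and 8.12 in wild type with LPS, 8.84 and 8.87 in unstimulated cells labelled Bcl6-/-, and 9.20 and 9.20 in those with LPS. The fitted LPS change was -0.43 (SE 0.13) in wild type and 0.34 (SE 0.13) in cells labelled Bcl6-/-, and in each genotype the arrays did not overlap. Under LPS the genotypes were 0.94 apart (SE 0.13), just short of 2-fold, and without replicate 1 of the wild-type LPS group the difference was 1.08 and passed the threshold.

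Cathepsin S, the cysteine protease that cleaves the invariant chain in antigen-presenting cells, was detected in every group. The Ctss probe (ILMN_1246861) read 10.56 and 10.47 in unstimulated wild type, 10.34 and 10.56 in wild type with LPS, 10.45 and 10.26 in unstimulated cells labelled Bcl6-/-, and 11.11 and 11.19 in those with LPS. Only the LPS-treated arrays labelled Bcl6-/- stood apart from the rest. The LPS change was -0.06 (SE 0.13) in wild type and 0.79 (SE 0.13) in cells labelled Bcl6-/-, and the difference between these was 0.86 (SE 0.18), below 2-fold.

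Cathepsin Z, a carboxypeptidase, and cathepsin B, another lysosomal cysteine protease, were bright in every group. Ctsz probe a (ILMN_2666007) read 13.64 and 13.73, 13.46 and 13.54, 13.86 and 14.03, and 13.91 and 14.14 in the groups taken in the same order. Probe b (ILMN_2839569) read 13.25 and 13.31, 13.18 and 13.21, 13.49 and 13.27, and 13.60 and 13.73. Under LPS both were higher in cells labelled Bcl6-/-, by 0.53 and 0.47 log2 units (SE 0.13 and 0.12), without overlap and below 2-fold. Ctsb probe b (ILMN_2683316) stayed between 15.61 and 15.80 on all 8 arrays, with genotype differences of -0.03 and 0.04 (SE 0.10). Ctsb probe a (ILMN_2593604) stayed between 4.74 and 5.34 and was never detected, so the pair of probes named for Ctsb disagree on whether the gene is read at all.

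**Figure D2:**
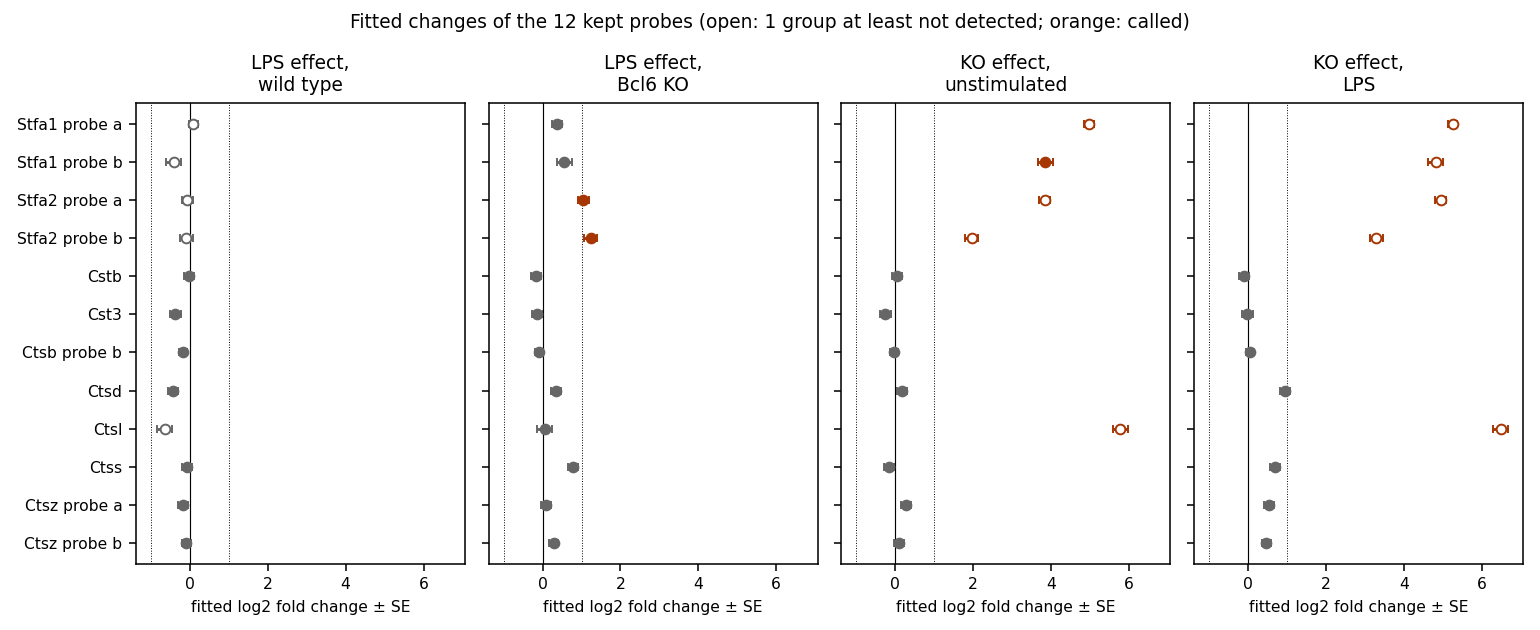
Fitted log2 fold changes (horizontal axis, with SE bars) of the 12 tested probes (vertical axis) in 4 comparisons, in which KO is the label Bcl6-/-. Orange marks calls, open points mark a comparison with at least 1 group not detected on either array, whose fitted value is not a bound, and dotted lines mark 2-fold. Stfa1, Stfa2 and Ctsl lie far to the right in both knockout panels, at 1.96 to 6.48, while the other probes lie within 1 log2 unit of 0.

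Across the 8 arrays the Stfa1 and Stfa2 probes followed each other with Pearson r of 0.960 to 0.993, and Ctsl followed them with r of 0.945 to 0.994. These values describe 4 groups of 2 technical replicate arrays and follow mainly the gap between genotypes. Of 12280 other named probes, those most like Stfa1 probe b were Mmp10, a matrix metalloprotease (r = 0.994), Il1rl2, the IL-36 receptor (r = 0.994), and Fah, an enzyme of tyrosine breakdown (r = 0.993). Those most like Ctsl were the chemokines Pf4 (r = 0.999) and Ccl8 (r = 0.998) and Rims2, a protein of vesicle release (r = 0.998). Ccl8 read 5.93 and 6.21 in unstimulated wild type and 12.12 and 12.30 in unstimulated cells labelled Bcl6-/-.

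The stefin A genes lie side by side on mouse chromosome 16, and the signal was followed along that cluster. RefSeq lists 12 genes in it, of which 11 had a probe, 14 probes in all, and 8 probes of 6 genes passed the filter. All 8 were called higher under LPS in arrays labelled Bcl6-/-, and 6 of the 8 were in unstimulated cells. Over all probes 6.1% and 4.15% were called higher in these comparisons. The filter kept all 8 only through the arrays labelled Bcl6-/-, so nothing is read from these counts. The order of the genes and the neighbours were examined after the stefin values had been seen.

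Outside the 10 genes, the cluster members read were Cstdc4, Cstdc5, Csta3 and Csta2, all named in the mouse as stefin-like inhibitors. Cstdc4 read 4.84 and 4.54 in unstimulated wild type and 8.36 and 8.64 in unstimulated cells labelled Bcl6-/-, a difference of at least 6.13-fold. Cstdc5 differed at least 2.16-fold. Csta3 and Csta2 were not detected in unstimulated cells of either genotype and were detected on both LPS-treated arrays labelled Bcl6-/-, at least 3.47-fold and at least 1.90-fold above wild type with LPS. No p-value is given for these 4 genes, since none was detected in wild type and the filter kept each only through the arrays labelled Bcl6-/-. Csta1, Stfa2l1, Cstdc3 and Cstdc6 were detected on no array, as Stfa3 was. Stfa1 shared 88.0% of its upstream window with Cstdc5, which was detected in cells labelled Bcl6-/-, and Stfa2 shared 90.8% with Stfa2l1, which was not.

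**Figure D3:**
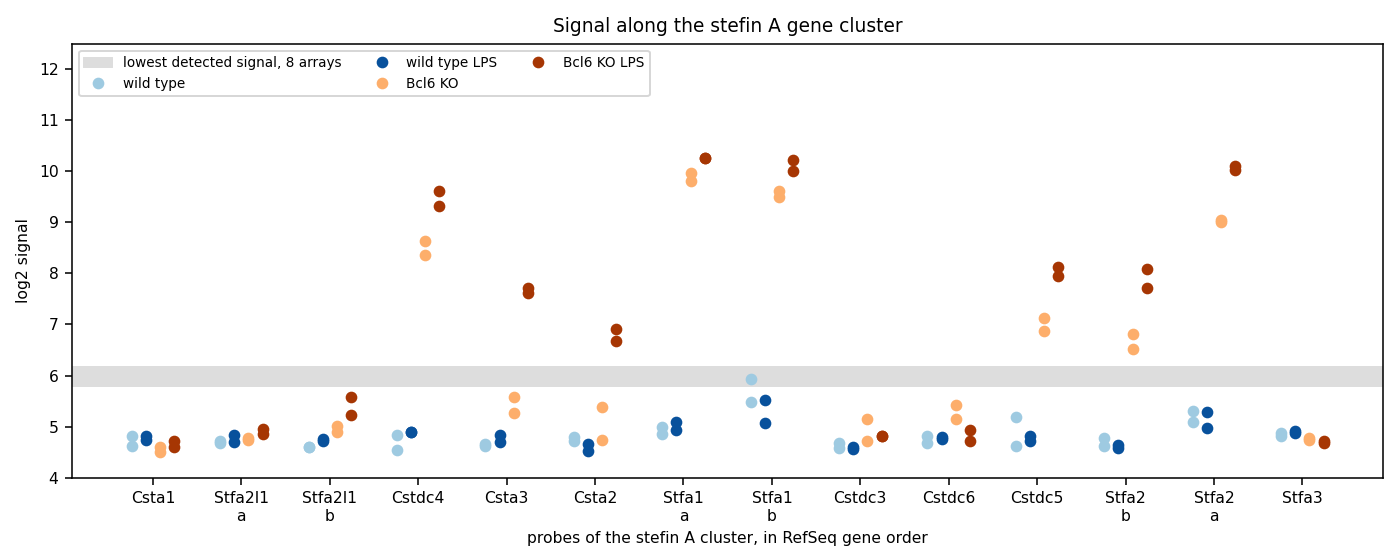
Log2 signal (vertical axis) of the 14 probes of the stefin A cluster in RefSeq gene order (horizontal axis), with 2 points for each of the 4 groups; KO is the label Bcl6-/-, and the grey band spans the lowest detected signal of the 8 arrays. Probes read in arrays labelled Bcl6-/- lie in blocks between probes at background on every array, such as Csta1, Cstdc3 and Stfa3. Of the probes read, Stfa1 probe b was also detected on 1 wild-type array.

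The neighbours of the cluster were read as well. Over all probes 7.92% were called between genotypes in unstimulated cells and 11.6% under LPS. Of the 5 tested genes before it, Dtx3l, Parp9, Kpna1, Fam162a and Ccdc58, 0 of 5 probes were called between genotypes in either condition. Dtx3l came closest, at -0.98 under LPS, just short of 2-fold. Of the 5 tested genes after it, 4 of 7 probes were called in each condition. These were all 3 probes of Cd86, a costimulatory ligand, which were higher in arrays labelled Bcl6-/- by 2.04 to 2.41 log2 units in unstimulated cells, and the Hcls1 probe, which was lower, at -1.08. Bcl6 itself lies on the same chromosome with 40 tested genes between. Of their 53 probes 5.66% were called in unstimulated cells and 7.55% under LPS. For the 389 probes of the whole chromosome, the stefin cluster included, the shares were 9.77% and 12.1%.

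Other inhibitors of these proteases were rarely detected. Of 23 further stefin and cystatin genes, 6 were tested, 1 probe each, and 4 of these 6 are the cluster genes above. Cst7 encodes cystatin F, an inhibitor that enters lysosomes of immune cells and acts on cathepsin C. It read 6.39 and 6.26 in unstimulated wild type, 7.20 and 7.48 in wild type with LPS, 5.27 and 5.22 in unstimulated cells labelled Bcl6-/-, and 6.45 and 6.18 in those with LPS. Unlike the stefins it was lower in cells labelled Bcl6-/-, by at least 1.43-fold in unstimulated cells and by -1.03 log2 units under LPS (limma adjusted p = 0.00082 and 0.000751). It rose with LPS in both genotypes, by 1.01 log2 units in wild type and at least 1.42-fold in cells labelled Bcl6-/- (limma adjusted p = 0.000655 and 0.000487). Cst11 did not pass the threshold in any comparison. Of the serpins listed as possible cathepsin inhibitors, 4 probes of 3 genes were tested. In each condition 1 was called higher and 0 lower between genotypes, beside 7.92% (unstimulated) and 11.6% (LPS) of all probes called. Serpina3f was higher in arrays labelled Bcl6-/- under LPS by 1.98 (limma adjusted p = 8.63e-05).

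Of 17 further cathepsin genes, 7 were tested with 16 probes. In unstimulated cells 2 probes were higher and 2 lower in arrays labelled Bcl6-/-, and under LPS 2 were higher and 0 lower, beside 7.92% and 11.6% of all probes called, with list medians of -0.19 and -0.37. Both probes that were higher are named for Ctse, cathepsin E, an aspartic protease of endosomes. One of them (ILMN_1228235) read 4.92 and 4.77 in unstimulated wild type, 4.68 and 4.56 in wild type with LPS, 9.73 and 9.82 in unstimulated cells labelled Bcl6-/-, and 9.48 and 9.40 in those with LPS. No wild-type array detected it, so it too passed the filter only through the arrays labelled Bcl6-/-, and the gap in unstimulated cells was at least 14.8-fold. Another (ILMN_2960325) was detected on every array and was higher in arrays labelled Bcl6-/- by 6.07 log2 units in unstimulated cells and by 5.44 under LPS (SE 0.11, limma adjusted p = 1.23e-08 and 1.91e-08). The third (ILMN_1222071) read 9.79 to 10.88 on all 8 arrays and was not called. It was higher in arrays labelled Bcl6-/- by 0.22 in unstimulated cells and by 0.99 under LPS (SE 0.11), just short of 2-fold. The Ctse probes thus disagree on the size of the difference and on whether the gene is read clearly above background in wild type.

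Ctsg, a granule protease of neutrophils, was not detected on any array labelled Bcl6-/- and passed the filter only through wild type, and in unstimulated cells it was lower there by at least 1.88-fold. Ctsa, the protective protein of lysosomal glycosidases, was lower, at -1.32 on 1 of its 5 tested probes and between -0.16 and 0.17 on the others. Ctsc, the activator of granule serine proteases, rose with LPS in wild type by 1.06 on 1 of 3 probes (limma adjusted p = 0.00105) and by 0.98 and 0.78 on the others, which stayed below 2-fold. The 3 probes of Ctsc did not pass the threshold between genotypes.

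Other lysosomal genes were read in the same comparisons. Among 30 tested genes of lysosomal hydrolases and activators, 46 probes, 0 were higher and 1 lower in unstimulated cells labelled Bcl6-/-, and 2 were higher and 3 lower under LPS, beside 7.92% and 11.6% of all probes called. The share called under LPS was thus close to that of all probes. The list medians were -0.06 in both, against 0.00 and -0.04 over all probes. The 2 that were higher under LPS were Galns, a sulfatase, by 1.30, and Ifi30, the lysosomal thiol reductase of antigen processing, by 1.09 (limma adjusted p = 0.000212 and 0.000155). The second probe of each was not called, at 0.20 for Galns and 0.66 for Ifi30. Idua, a glycosidase of heparan sulfate breakdown, was lower in both conditions, at -1.32 and -1.10. Under LPS 1 Lipa probe was lower, at -1.01, and the other tested Lipa probe was not called. Lgmn, the legumain protease that processes cathepsins B, L and others, read 13.54 and 13.58 in unstimulated wild type and 13.50 and 13.53 in unstimulated cells labelled Bcl6-/-, and its genotype differences were -0.04 and 0.04.

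Lysosomal membrane proteins and proton pump subunits gave 51 tested probes of 29 genes. Of these 0 were higher and 2 lower in unstimulated cells labelled Bcl6-/-, and 2 higher and 4 lower under LPS, beside the same 7.92% and 11.6% of all probes, with medians of 0.08 and -0.10. Under LPS this share was also close to that of all probes. Hgsnat, the acetyltransferase of heparan sulfate breakdown, read 11.53 and 11.65 in unstimulated wild type and 9.65 and 9.51 in unstimulated cells labelled Bcl6-/-, and it was lower, at -2.01 and -2.02 in the respective comparisons (limma adjusted p = 7.60e-06 and 6.16e-06). Of 4 tested probes of Slc11a1, the metal transporter of phagosomes, 2 were lower under LPS, at -1.25 and -1.17, and the others were not called, at -0.52 and -0.72. In unstimulated cells 1 Atp6v1c1 probe was lower, at -1.43, and the other was not called. Under LPS 1 Lamp2 probe was higher, by 1.09 (limma adjusted p = 0.000265), and the other tested Lamp2 probes were not called. Lamp1, the main glycoprotein of the lysosomal membrane, differed between genotypes by 0.13 and 0.07 and did not pass the threshold.

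Of the sorting receptors and transcription factors that control lysosomes, 22 probes of 13 genes were tested. In unstimulated cells 1 was higher and 1 lower in arrays labelled Bcl6-/-, and the same counts held under LPS. Over all probes 7.92% and 11.6% were called in these comparisons, so the share in this list was close to that of all probes. Tfec, the macrophage-restricted relative of Tfeb, read 5.10 and 4.87 in unstimulated wild type, 7.51 and 7.66 in wild type with LPS, 6.27 and 5.93 in unstimulated cells labelled Bcl6-/-, and 8.64 and 8.63 in those with LPS. It was at least 3.25-fold higher with LPS in wild type and 2.54 log2 units higher with LPS in cells labelled Bcl6-/- (limma adjusted p = 3.98e-06 and 4.19e-06). Under LPS it was 1.05 higher in cells labelled Bcl6-/- than in wild type. Mitf, another member of that family, rose with LPS by 1.45 in cells labelled Bcl6-/- on 1 of 2 tested probes (limma adjusted p = 0.000122), and the other was not detected on these arrays.

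**Figure D4:**
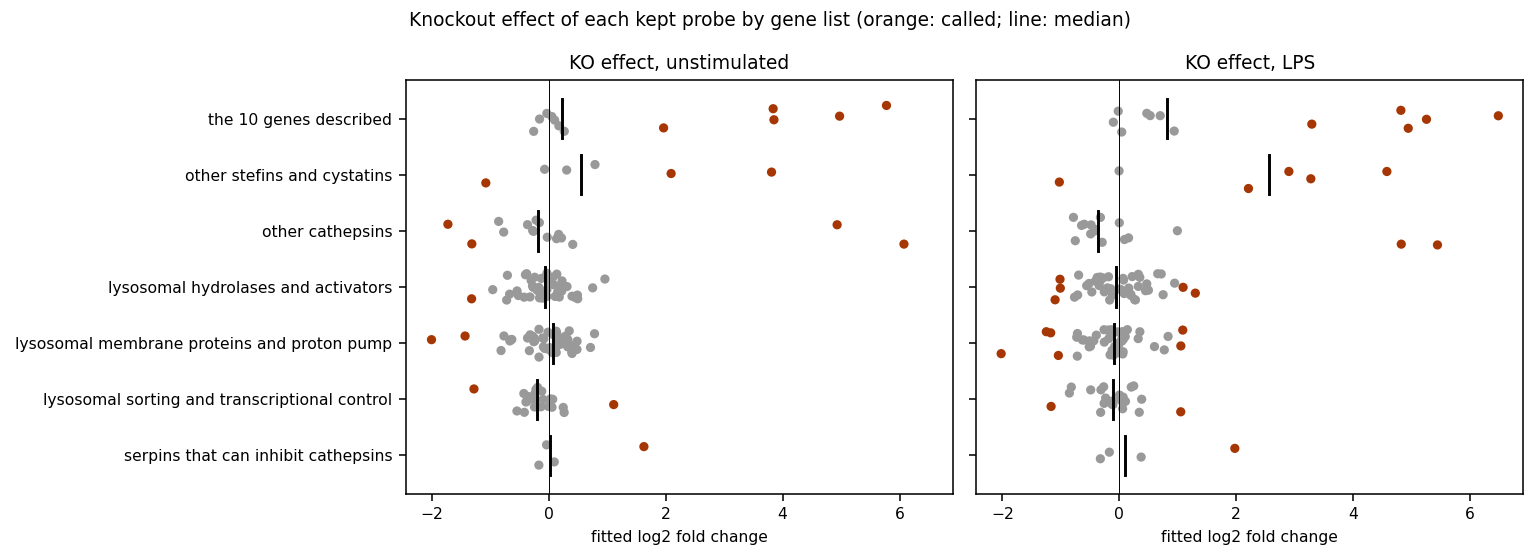
Fitted log2 knockout effect (horizontal axis) of each tested probe, by gene list (vertical axis), in unstimulated cells on the left and under LPS on the right; KO is the label Bcl6-/-, orange marks calls and the vertical line is the list's median. Probes of the 10 genes reach 6.48 and those of the other stefins 4.58 log2 units, and 2 cathepsin E probes lie between 4.82 and 6.07, while the lysosomal lists centre between -0.21 and 0.08.

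Because stefin A and several of the other genes are also transcripts of neutrophils and their precursors, markers of that lineage were read beside them. Of 23 tested probes of 16 granulocyte genes, 0 were higher and 16 lower in unstimulated cells labelled Bcl6-/-, with a median of -1.58, while the stefin probes were higher there. Over all probes 4.15% were higher and 3.77% lower in that comparison, with a median of 0.00. Under LPS 4 of the 23 were higher and 5 lower, beside 6.1% and 5.45% of all probes. The 4 were 3 probes of Csf3r, the receptor for granulocyte colony-stimulating factor, at 1.13 to 1.72 log2 units, and the Mmp8 probe, which was detected only on the LPS-treated arrays labelled Bcl6-/-. The summed linear signal of all granulocyte marker probes was 27900 and 30700 in unstimulated wild type and 25760 and 25920 in wild type with LPS. It was 10750 and 11620 in unstimulated cells labelled Bcl6-/-, and 15740 and 16710 in those with LPS. Such a linear sum is weighted to its brightest probes. In unstimulated wild type these were S100a8, at log2 signals of 13.61 and 13.84, and S100a9, at 12.44 and 12.51. Between 10 and 11 of the 19 granulocyte genes with a probe were detected on the arrays labelled Bcl6-/- and 13 to 15 on the wild-type arrays. Elane, Prtn3 and Ctsg were detected on every wild-type array and on no array labelled Bcl6-/-. No marker gene of dendritic, B, T and NK, stromal or erythroid cells passed the filter. Of the mast cell, basophil and eosinophil markers 1 probe, of Kit, was tested, and it was lower in arrays labelled Bcl6-/- in both conditions. Bulk RNA cannot tell fewer cells of a type from less RNA in each cell, and the part of these markers in the stefin and cathepsin differences was not tested.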

How the data were processed

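Total RNA of 8 samples was measured on single-colour Illumina bead arrays. The authors deposited 1 mean intensity per probe and array, not normalized between arrays, with median intensities of 112 to 130, and a table of their own processed intensity values, with a normalization not given in the sources used here. A detection p-value, deposited for every probe and array, moves in steps of 1 in 936. The submitters' processing notes name GenomeStudio and no version. Columns of other samples numbered 0.

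The raw intensity was background-corrected with nec of limma 3.58.1 in R 4.3.3 (offset 16, using the deposited detection p-values), put on the log2 scale and quantile-normalized. Of 45281 probes, 14418 were kept because 2 or more arrays gave a detection p under 0.01. The platform annotation gave 34885 probes 1 symbol, 18 several and 10378 none, and 34818 were matched to RefSeq names (GRCm38.p6), which also gave the gene order. One limma model with 4 group means was fitted over all 8 arrays, with Benjamini-Hochberg adjustment over the 14418 probes within each comparison. A call needed both a 2-fold change and an adjusted p under 0.05. Where both arrays of the dimmer group were undetected, "at least N-fold" sets the brighter group's mean log2 signal against the mean, over the dimmer arrays, of whichever was higher, the probe's signal or the lowest signal that array detected. The model was tested on simulated data.

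The genes, lists, tests and alternatives were chosen with earlier results of these data known. The rule for named genes took every member probe, Bcl6, and from each list and comparison up to 4 called probes with the largest fitted change, seen on both arrays of the higher group and without overlap, plus Lgmn, Ctsc, Cst7 and Lamp1, and the 3 probes most correlated with the brightest Stfa1 to Stfa3 probe and with Ctsl. Not described above are the probes this rule took for Acp2, Ctns, Dnase2a, Gga2, Npc1, Pla2g15, Serpinb6b and Sort1. Of the named probes, not every called comparison is printed. Granulocyte markers are named after their values were seen. Upstream windows are from RefSeq, found for 8 of the 10 genes, and were aligned with Biopython 1.88. Replicate numbers did not pair the arrays (correlations of deviations -0.0198 to 0.0122). Slides are not given, so the slide was not used as a block. The number of arrays limits the precision. Since they are labelled technical replicates, more arrays of this kind would not measure the spread between mice.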

Additional observations from a re-analysis of the deposited data

Results flagged for a closer look

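The difference given here is the LPS effect in cells labelled Bcl6-/- minus that in wild type, on the log2 scale. The screen covered only the probes of the 10 genes and the called list probes taken by the naming rule. For 12 of these probes the LPS effect differed between genotypes at a limma adjusted p under 0.05 for the difference itself. Over all 14418 probes 4.22% passed this and 2-fold as well, and the share without the 2-fold rule was not counted. The list probes entered the screen because they were already called on these arrays, so nothing is read from the count of 12. Among the 10 genes these were Stfa2 probe a at 1.10, Stfa2 probe b at 1.33, Ctss at 0.86 and Ctsd at 0.77. The 10 genes were chosen with these results known, so their values are a description and no p-value is printed for them. The Stfa2 probes were not detected in wild type and passed the filter only through the arrays labelled Bcl6-/-.

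Among the other stefins the difference was 2.11 for Csta3, 1.90 for Csta2 and 1.18 for Cstdc5, and these too were undetected in wild type and kept only through the arrays labelled Bcl6-/-. Among the other cathepsins it was 0.94 for Ctsg, which was detected on no array labelled Bcl6-/-, 0.90 for 1 Ctsa probe and -0.63 for 1 Ctse probe (limma adjusted p = 0.0307 and 0.0409 for the last 2). That Ctse probe (ILMN_2960325) read close to the lowest detected signals in wild type. Another Ctse probe (ILMN_1222071), outside the screen, went the other way, at 0.78 (limma adjusted p = 0.0222). Among the screened lysosomal probes the difference was 0.81 for Galns and 0.79 for 1 Lamp2 probe (limma adjusted p = 0.0462 and 0.0317). Outside the screen, 1 probe of the lysosomal hydrolases was called for the difference, in the negative direction. Of these 12 only the Stfa2, Csta3, Csta2 and Cstdc5 probes also passed 2-fold.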

How the results depend on the processing

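No called change changed sign under the alternatives run, whereas small uncalled values did, such as the genotype difference of Ctsb probe b under LPS, 0.04 with a range of -0.19 to 0.07. The 5 knockout calls of the 10 genes in unstimulated cells became 4 without background correction and with the authors' processed values, where Stfa2 probe b fell below 2-fold, and 3 with 1 probe per gene. The 5 under LPS became 3 with 1 probe per gene and 6 without replicate 1 of wild type with LPS, where Ctsd was added. The LPS calls in cells labelled Bcl6-/-, 2 probes, both of Stfa2, fell to 1 with an offset of 50 or 1 probe per gene, and to 0 without background correction, with median scaling and with the authors' processed values, where their log2 changes were 0.75 to 0.93. For the difference of the LPS effect the count of 2 became 0 without background correction and with the authors' values, 1 with median scaling and with 1 probe per gene, 3 with cyclic loess, where Stfa1 probe b was added, and 1 to 3 when 1 array was left out. It was 1 without replicate 2 of unstimulated wild type, replicate 2 of wild type with LPS, or either unstimulated array labelled Bcl6-/-, and 3 without replicate 1 of unstimulated wild type, where Ctsl was added. Of the 6 lists of other inhibitors, proteases and lysosomal genes, 33 distinct probes were called in at least 1 of the 4 comparisons between groups, and this became 17 without background correction, 16 with the authors' values and 18 with 1 probe per gene, which tests fewer probes. With the replicate number as a block the counts were 0, 2, 5, 5 and 2, as without it, and the list calls numbered 33. Without background correction 947, 949, 495, 662 and 197 of all probes were called for LPS in wild type, LPS in cells labelled Bcl6-/-, the genotype in unstimulated cells, the genotype under LPS and the difference, against 1948, 2015, 1142, 1666 and 608. Median scaling moved the median of all probes to -0.25 for LPS in cells labelled Bcl6-/-, -0.30 for the genotype under LPS and -0.22 for the difference, and split the genotype calls under LPS into 540 higher and 1483 lower, against 880 and 786. The cause of these shifts was not tested. Signals near the array background limit Stfa1, Stfa2, Stfa3 and Ctsl in wild type mostly to bounds, and Cstb sits at the upper end of the range. The slide could not be used as a block.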
